A study of Mus musculus with 2 samples.

Results

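Myc and 32 genes of ribosome biogenesis were followed in single-cell RNA of mouse liver tumours. The 33 members are Myc, the polyamine enzyme gene Odc1 and 31 genes of nucleolar ribosome assembly, taken by symbol. Each of the 33 symbols was found among the 32285 features of both count matrices. MYC is a transcription factor that binds DNA with its partner MAX, most strongly at the E-box, and many genes of ribosome assembly and polyamine synthesis are among its classical targets. Ribosome assembly starts in the nucleolus, where RNA polymerase I transcribes the ribosomal RNA precursor, small nucleolar ribonucleoproteins (snoRNPs) guide its chemical modification, and separate sets of factors cut, fold and export the small (40S) and large (60S) subunits. In liver tumours this programme is known for following growth and proliferation.

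The study profiled 1 library of tumour cells labelled shCtrl, with the genotype label WT, and 1 library labelled and genotyped shSrsf10, a short hairpin RNA against the splicing factor gene Srsf10. The design text speaks of WT or shSrsf10 mice. Strain, age, the way the tumours were made, the cells that carry the hairpin and the number of mice behind each library are not given in the sources used here. The series title names tumour immunity and immunotherapy as the question. With 1 library per group there was no test between groups: every interval below is at 95% and covers counting error of UMIs (unique molecular identifiers, 1 per captured RNA molecule) only, and differences between mice cannot be told apart from differences between groups.

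Total UMIs were similar, at 143327661 over 9920 barcodes for shCtrl and 136419902 over 7553 for shSrsf10, and 67 barcode sequences occurred in both libraries. Barcodes were placed in 4 classes by the RNA they held. Tumour barcodes had at least 5 UMIs of the keratins Krt8 and Krt18 and none of Ptprc, the pan-leukocyte gene. T barcodes had at least 2 UMIs of Cd3d, Cd3e and Cd3g, macrophage barcodes at least 3 of the complement genes C1qa, C1qb and C1qc, and monocyte barcodes at least 3 of Lyz2 with at most 1 C1q UMI and under 1% of UMIs from S100a8 and S100a9. In shCtrl and shSrsf10 these were 6986 and 3962 tumour, 386 and 2107 T, 494 and 180 macrophage, and 129 and 121 monocyte barcodes. The barcodes of every class were deeper in shSrsf10. Median UMIs were 26438 against 17253 in tumour and 2687 against 2264 in T barcodes. They were 3681 against 2328 in monocyte and 4074.5 against 2627 in macrophage barcodes. Levels are given as CPM, the UMIs of a gene per 1000000 UMIs of the class in that library, not divided by gene length, and a log2 ratio is shSrsf10 over shCtrl. Srsf10, the hairpin's target, was at 45.8 CPM in shCtrl and 19.8 in shSrsf10 tumour barcodes, a log2 ratio of -1.21 (-1.28 to -1.14). Its log2 ratio was -0.64 in T, -0.80 in monocyte and -0.79 in macrophage barcodes, with intervals below 0. These immune sums hold tumour RNA, as described next. Srsf10 was not measured without it, so they do not show its level in the immune cells themselves.

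The immune gates also took in tumour RNA, and this bears on each immune value, those of Srsf10 included. A list of 10 hepatocyte genes, such as the albumin gene Alb, and a list of 8 tumour epithelial genes stood, in the summed T, monocyte and macrophage barcodes, at 39.2% to 96.4% of their tumour level. Leaving out immune barcodes with any Krt8 or Krt18 UMI lowered this to between 3.80% and 15.8%. That step kept 41.9% to 59.3% of immune barcodes and 17.2% to 29.7% of their UMIs. The share left was higher in shCtrl than in shSrsf10 in each immune class. For the epithelial list it was 13.7% and 5.57% in T, 15.8% and 6.18% in monocyte and 11.1% and 3.80% in macrophage barcodes. The hepatocyte list went the same way. The part of this remaining tumour RNA in the keratin-free ratios was not tested. Values of these keratin-free barcodes are given beside the immune sums and most members named. In the tumour gate the summed level of 11 T cell genes was 5.91 CPM in shCtrl and 23.0 in shSrsf10, against 3043 and 3903 CPM in T barcodes. The 12 macrophage genes summed to 7455 and 4581 CPM in tumour barcodes, nearly all of it Apoe (7444 and 4573 CPM), an apolipoprotein gene that hepatocytes also express, and the next highest, Cd68, was at 5.43 and 5.47 CPM. The 4 fibroblast genes summed to 9.98 and 70.5 CPM, mostly Dcn. In the same barcodes the 8 tumour epithelial genes summed to 2908 and 2346 CPM and the 10 hepatocyte genes to 8655 and 5327 CPM, a log2 ratio of -0.70 with 6 of the 10 at least 1.5-fold lower. Mitochondrial RNA, often read as a sign of cell and RNA quality, was a smaller share of UMIs in shSrsf10 in every class, at 0.43% and 0.21% in tumour, 0.50% and 0.23% in T, 0.41% and 0.16% in monocyte and 0.53% and 0.17% in macrophage barcodes. The part of these differences in the member ratios was not tested.

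A sequence feature that the choice of members did not use was the E-box CACGTG, whose letters read the same on both strands. RefSeq promoter windows (GRCm38.p6, 250 bases before to 50 after a start) were at hand for 27 of the 33 members, as 30 windows. The hexamer was in 6 of the 30 member windows, 20% of them, against 7.15% of all 32851 windows. In the 250 bases before the start alone it was in 1 of 30 member windows, 3.33%, against 6.02% of all. The other matches therefore lay in the first transcribed bases, counted from the RefSeq start. For 23 of the 30 windows a stretch of bases after the start occurred in a GENCODE transcript of the gene. Bases further inside a gene were not searched. The sites are shown because they are what these members share in sequence with the site MYC prefers. Each is 5′ to 3′ on the gene's strand, with the hexamer in capitals and up to 12 bases on each side.
Nop2, chr6:125131811-125131840, + strand, from 60 bases before the start: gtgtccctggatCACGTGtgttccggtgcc
Pes1, chr11:3963965-3963994, + strand, from transcribed base 3: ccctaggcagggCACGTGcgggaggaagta
Utp4, chr8:106893643-106893672, + strand, from base 16: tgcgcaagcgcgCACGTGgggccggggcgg
Wdr43, chr17:71616220-71616249, + strand, from base 18: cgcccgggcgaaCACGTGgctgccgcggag
Utp20, chr10:88826765-88826789, - strand, from base 38: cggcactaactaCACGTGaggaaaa
Mybbp1a, chr11:72441355-72441376, + strand, from base 41: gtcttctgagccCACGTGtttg
A match is only a match of letters. The 6 genes did not share a direction between the libraries in tumour barcodes: the log2 ratio was 0.14 for Nop2 and 0.15 for Pes1, and -0.02 for Utp4, -0.10 for Mybbp1a, -0.24 for Wdr43 and -0.31 for Utp20.

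In tumour barcodes the members together made up 4436 CPM in shCtrl and 4695 CPM in shSrsf10, a log2 ratio of 0.08 (0.08 to 0.09). All 33 had at least 20 UMIs over both libraries, the minimum for a call. A call also needed a 1.5-fold difference. None was at least 1.5-fold higher in shSrsf10, where 9.4% of the 15037 features tested were, and 1 was at least 1.5-fold lower, where 13% of features were. With barcodes carrying T cell or macrophage RNA left out these counts were again 0 and 1, beside 8.52% and 12.8% of features. The median log2 ratio of members was -0.02, beside -0.06 over all features. Counting intervals lay above 0 for 14 members and below 0 for 12, against 26.6% and 36.9% of all features. The interquartile range of the ratios was 0.27 on the log2 scale for members and 0.57 for all features. Npm1, Nop10, Nhp2 and Ncl held 64.2% of the member UMIs. The sum of the other 29 had a log2 ratio of 0.08 as well.

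**Figure D1:**
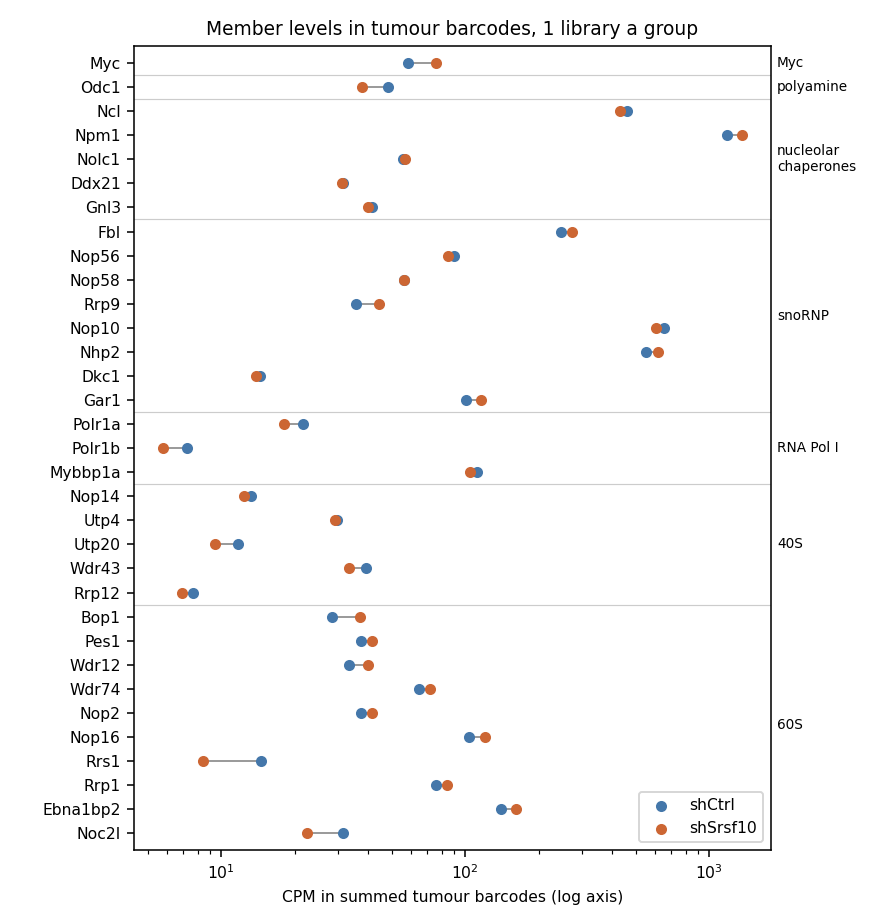
CPM of each member in summed tumour barcodes of shCtrl (blue) and shSrsf10 (orange) on a log axis, grouped by role, with 1 library a group. Most pairs lie close together; Rrs1 (14.5 and 8.42 CPM) is the pair at least 1.5-fold apart, and Myc (58.1 and 75.9 CPM) is the one with the highest ratio.

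Myc, at chr15:61985391-61990374 on the + strand of GRCm38, stood at 58.1 CPM (56.8 to 59.4) in shCtrl and 75.9 CPM (74.4 to 77.5) in shSrsf10 tumour barcodes, a log2 ratio of 0.39 (0.34 to 0.43), the highest of the 33. It was higher in shSrsf10 in each of 4 depth ranges of the barcodes, with log2 ratios of 0.32, 0.35, 0.41 and 0.34 from under 10000 to over 40000 UMIs. It was detected in 3510 of 6986 shCtrl and 2639 of 3962 shSrsf10 barcodes, so the level was spread over many barcodes. The 10 barcodes richest in Myc held 1.80% and 2.57% of its UMIs. Immediate early genes, which react within minutes to stimulation and to tissue dissociation and to whose class Myc also belongs, differed in both directions in the same barcodes. Of 19, 5 were at least 1.5-fold higher (9.4% of all features) and 4 lower (13%) in shSrsf10. Fos went from 109.8 to 174.8 CPM, Ier2 from 143.7 to 240.0 and Zfp36 from 107.3 to 189.9, while Jund went from 163.2 to 87.9 and Klf2 from 74.4 to 38.4. Their part in the Myc difference was not tested.

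Among MYC's partners and antagonists, none of 18 genes was at least 1.5-fold higher in tumour barcodes (9.4% of all features) and 4 were lower (13%). The list's median log2 ratio was -0.14 and its summed ratio 0.03 (0.02 to 0.05), so the median and the sum differed in sign. Max, the obligate partner, differed little, at 15.2 and 16.1 CPM, a log2 ratio of 0.08 (-0.01 to 0.17). Mxd4 and Mxi1 encode repressors that compete for MAX: Mxd4 was at 15.2 and 8.56 CPM (log2 ratio -0.83) and Mxi1 at 6.92 and 4.21 CPM (-0.72). Fbxw7, the substrate receptor of a ubiquitin ligase that marks MYC for degradation, was at 17.8 and 10.1 CPM (-0.82). Mga, another MAX partner, was at 8.46 and 5.57 CPM (-0.60). The paralogues Mycn and Mycl were near the floor of detection, at 0.46 to 1.04 CPM.

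The nucleolar chaperones and organisers divided. Npm1, a histone chaperone of the nucleolar granular layer, was at 1185 CPM in shCtrl and 1359 in shSrsf10, a log2 ratio of 0.20 (0.19 to 0.21). Ncl, nucleolin, which binds the ribosomal RNA precursor, was at 461.1 and 429.97 CPM, a log2 ratio of -0.10 (-0.12 to -0.08). Nolc1, a snoRNP chaperone, the RNA helicase gene Ddx21 and the GTPase gene Gnl3 had intervals that held 0.

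The snoRNP proteins also divided, 4 above 0 and 4 below, though the intervals of Nop58 and Dkc1, among the lower 4, held 0. Box C/D snoRNPs methylate ribosomal RNA, and their methyltransferase gene Fbl was at 247.1 and 273.3 CPM, a log2 ratio of 0.15. Its core partners Nop56 and Nop58 had log2 ratios of -0.08 and -0.00, and Rrp9, which binds the U3 snoRNA, one of 0.31 (0.26 to 0.37). Box H/ACA snoRNPs make pseudouridine and have 4 core proteins. Of their genes, Nhp2 went from 549.3 to 618.4 CPM and Gar1 from 100.5 to 116.0, while Nop10 went from 652.5 to 607.7. Dkc1, the pseudouridine synthase gene, had a log2 ratio of -0.06 (-0.15 to 0.04). The 4 genes of 1 complex thus had intervals on both sides of 0.

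The 3 genes around RNA polymerase I were all lower in shSrsf10 tumour barcodes. Polr1b, the second largest subunit, was at 7.23 and 5.79 CPM, a log2 ratio of -0.32 (-0.46 to -0.18). Polr1a, the largest subunit, was at 21.6 and 18.1 CPM (-0.26), and Mybbp1a, a nucleolar protein that binds transcription factors, at 112.0 and 104.8 CPM (-0.10). Each interval lay below 0, as for 36.9% of all features, and each difference was under 1.5-fold. Of 18 other genes of RNA polymerase I and its factors, none was at least 1.5-fold higher (9.4% of all features) or lower (13%). Their median log2 ratio was -0.01 and their summed ratio 0.08 (0.08 to 0.09).

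Factors of the 40S subunit had ratios below 0 in 5 of 5 cases. Utp20, a very long scaffold of the small subunit processome, was at 11.7 and 9.45 CPM, a log2 ratio of -0.31 (-0.42 to -0.19). Wdr43 was at 39.3 and 33.3 CPM (-0.24), and Rrp12, an export factor of pre-40S particles, at 7.67 and 6.91 CPM (-0.15). The intervals of Nop14 and Utp4 held 0. The 52 other 40S assembly genes gave a different picture. None was at least 1.5-fold higher (9.4% of all features) or lower (13%). Their median log2 ratio was 0.09 and their summed ratio 0.13 (0.13 to 0.14).

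Factors of the 60S subunit had ratios above 0 in 8 of 10 cases. The 3 genes of the PeBoW complex, which matures the large subunit RNA, were all higher: Bop1 at 28.4 and 37.0 CPM (0.38), Wdr12 at 33.3 and 39.9 CPM (0.26) and Pes1 at 37.3 and 41.5 CPM (0.15). Nop16 (0.22), Ebna1bp2 (0.22), Wdr74 (0.15), Nop2 (0.14), an RNA methyltransferase gene, and Rrp1 (0.14) had intervals above 0 as well. The other 2 were the lowest of the 33. Rrs1, which helps to place the 5S RNA in the large subunit, was at 14.5 CPM (13.9 to 15.2) and 8.42 CPM (7.91 to 8.96), a log2 ratio of -0.79 (-0.90 to -0.67). Noc2l, related to a factor of pre-60S export and also known as an inhibitor of histone acetylation, was at 31.5 and 22.6 CPM, a log2 ratio of -0.48 (-0.55 to -0.41). Rrs1 was lower in each of the 4 depth ranges, from -0.98 to -0.70, with the upper end of the interval at 0.00 in the shallowest. Of 57 other 60S assembly genes, none was at least 1.5-fold higher (9.4% of all features) and 1 was lower (13%). Their median log2 ratio was 0.02 and their summed ratio 0.14 (0.14 to 0.15). The 10 members had a median and a summed ratio of 0.15.

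Rrs1 is the single-exon gene of the set. It lies at chr1:9545408-9547455 on the + strand of GRCm38, in the GENCODE vM21 annotation, and no other annotated gene with a row in the matrices overlaps it. Of the members none overlaps another such gene on its own strand, and 12 overlap one on the other strand, Nop56 with Idh3b and Bop1 with Mroh1 among them; whether the counting used strand is not given in the sources used here. Transcript length went along with the ratios in general. Over 13093 protein-coding features the Spearman correlation between the length of the longest coding transcript and the tumour log2 ratio was -0.36, and over the 33 members and their longest principal transcripts it was -0.39. Longer transcripts thus had lower ratios both among all genes and among the members. Utp20 (8821 bases) and Polr1a (9216 bases) are long, and Myc (1365 bases), Gar1 (1271 bases) and Nhp2 (1042 bases) are short, while Wdr12 (10012 bases) and Rrs1 (2048 bases) go against the trend. The genes of a library share its depth and chemistry, so this is a description, and the part of length in the members' ratios was not tested. With GC content the correlation was 0.08 over all features and 0.20 over the members.

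Odc1, the rate-limiting enzyme of polyamine synthesis and a classical target of MYC, was lower in shSrsf10 tumour barcodes, while Myc was higher. It was at 48.5 CPM (47.3 to 49.6) in shCtrl and 37.6 CPM (36.5 to 38.7) in shSrsf10, a log2 ratio of -0.37 (-0.42 to -0.31). By depth this did not hold throughout: the log2 ratio was 0.41 (0.11 to 0.71) in barcodes under 10000 UMIs and -0.39, -0.63 and -0.37 in the deeper 3 ranges. In that shallowest range the T cell genes summed to 130.9 CPM in shSrsf10 and 14.7 in shCtrl. Without barcodes with RNA of another class they summed to 17.7 and 4.42 CPM, and the log2 ratio of Odc1 there was 0.33 (-0.01 to 0.65). Srm, which makes spermidine in the next steps of the pathway and is another known MYC target, was lower in tumour barcodes, at 119.0 and 54.3 CPM, a log2 ratio of -1.13 (-1.17 to -1.09). Of 21 polyamine genes beside Odc1, 20 reached the minimum. None was at least 1.5-fold higher (9.4% of all features) and 3 were lower (13%). These 3 were Srm, the polyamine exporter gene Atp13a2 (-0.94) and the arginase gene Arg1 (-1.31), the last at under 1 CPM. The list's median log2 ratio was -0.14, while its summed ratio was 0.23. The antizyme gene Oaz1, whose product directs ODC1 to degradation, was at 248.5 and 288.3 CPM (0.21).

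Of 55 other MYC targets outside ribosome assembly, 1 was at least 1.5-fold higher (9.4% of all features) and 3 were lower (13%) in tumour barcodes. The list's median log2 ratio was 0.14. The lower ones were Srm, the hexokinase gene Hk2 (53.5 and 33.5 CPM, log2 ratio -0.68) and the telomerase gene Tert (2.60 and 1.66 CPM, -0.65). Ccnd2, a D-type cyclin gene, was the higher one, at 0.41 and 0.61 CPM. Of 23 measured genes of the nuclear exosome and processing nucleases, which trim ribosomal RNA precursors, none was at least 1.5-fold higher (9.4%) or lower (13%). Of 20 genes of p53 and nucleolar stress, 1 was at least 1.5-fold higher (9.4%) and none was lower (13%). The higher one was Fas, a death receptor gene, at 5.97 and 11.01 CPM.

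To see whether the members varied with the state of the tumour cells within a library, tumour barcodes were thinned to 5000 UMIs each and split. The 524 shCtrl and 197 shSrsf10 barcodes below that depth were left out. Per thinned barcode the members made up a median of 0.42% of UMIs in shCtrl, with 0.24% and 0.64% at the 10th and 90th percentiles, and a median of 0.44% in shSrsf10, with 0.26% and 0.66%. The spread between barcodes within a library was far wider than the difference between the medians. Counting noise at 5000 UMIs is part of that spread, and it was not separated from variation between cells.

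Most members were higher in barcodes with cell cycle RNA in both libraries. Barcodes with at least 2 UMIs of Mki67, Top2a, Cdk1, Ccnb1, Birc5 and Cenpf were 33.5% of shCtrl and 40.5% of shSrsf10 barcodes, and those with none were 48.2% and 42.4%. The 32 members other than Myc summed to 3923 CPM without and 4687 CPM with cycle RNA in shCtrl, a log2 ratio of 0.26 (0.24 to 0.27), and to 3991 and 4904 CPM in shSrsf10, a log2 ratio of 0.30 (0.28 to 0.32). Intervals of 20 of the 33 members lay above 0 in both libraries, where those of 21.5% of features did. The other 12 beside Myc, Npm1 and Utp4 among them, had an interval that held 0 in at least 1 library. Odc1 had log2 ratios of 0.70 and 0.63 in shCtrl and shSrsf10, Nolc1 of 0.68 and 0.72, and Nhp2 of 0.56 and 0.60. Npm1, at 1149 and 1138 CPM without and with cycle RNA in shCtrl, hardly differed, with log2 ratios of -0.01 and 0.03.

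Myc was the 1 member with intervals below 0 in both libraries, where 5.31% of features had them. Its level was 65.2 CPM in shCtrl barcodes without cycle RNA and 48.2 CPM in those with it, a log2 ratio of -0.43 (-0.59 to -0.28), and 82.3 and 70.3 CPM in shSrsf10, a log2 ratio of -0.23 (-0.40 to -0.06). The barcodes with cycle RNA had been deeper before thinning, with medians of 21483 against 16501 UMIs in shCtrl and 32375 against 24071 in shSrsf10. Between the libraries Myc was higher in shSrsf10 in the barcodes without (0.34) and with (0.54) cycle RNA. The sum of the others had a log2 ratio between the libraries of 0.02 without and 0.07 with cycle RNA. Of 36 cell cycle genes 1 was at least 1.5-fold higher in shSrsf10 tumour barcodes (9.4% of all features) and none was lower (13%). The higher one was Tk1, at 46.7 and 75.9 CPM.

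A split by Myc itself separated the members' levels less. Barcodes with at least 2 thinned Myc UMIs were 4.87% of shCtrl and 7.46% of shSrsf10 barcodes. Against barcodes with none, the other 32 members together had a log2 ratio of -0.00 (-0.04 to 0.04) in shCtrl and 0.09 (0.06 to 0.13) in shSrsf10. Npm1 was the 1 member of 32 with intervals above 0 in both libraries, at 0.17 and 0.13, where 0.995% of features had them, and none lay below 0 in both, where 1.05% of features did. Odc1 had log2 ratios of 0.03 (-0.34 to 0.37) and 0.22 (-0.22 to 0.63). A gene seen at 0 to 2 UMIs per barcode sorts barcodes with much counting noise, so small relations could be missed at this depth.

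**Figure D2:**
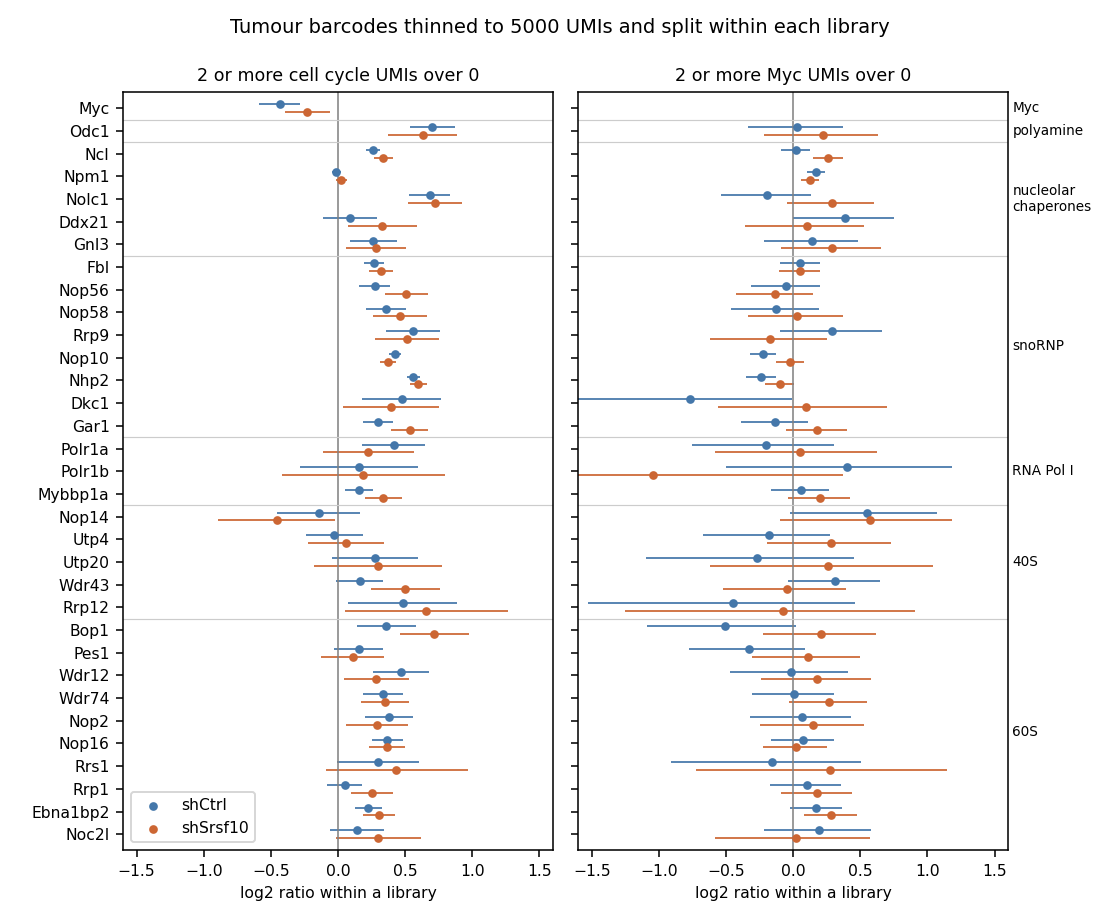
Log2 ratios within each library (blue shCtrl, orange shSrsf10) between tumour barcodes thinned to 5000 UMIs, for the split by cell cycle RNA (left) and by Myc UMIs (right); lines are 95% counting intervals, some running past the axis. On the left most members lie above 0 and Myc lies below (-0.43 and -0.23); on the right Npm1 is the 1 member with both intervals above 0.

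Cd74, the invariant chain gene of antigen presentation and a marker of interferon response, gave the last split. It was absent from 85.1% of thinned shCtrl and 34.7% of shSrsf10 tumour barcodes, and at 5 UMIs or more in 3.10% and 34.0%. The sum of the members without Myc was 4261 CPM in shCtrl and 4186 in shSrsf10 barcodes with no Cd74, a log2 ratio of -0.03 (-0.04 to -0.01), and 4206 and 4716 CPM in those with 5 or more, a log2 ratio of 0.17 (0.12 to 0.21). Within shSrsf10, barcodes rich in Cd74 were higher in the summed members than those without, by a log2 ratio of 0.17 (0.15 to 0.20), and within shCtrl they were not, at -0.02 (-0.06 to 0.03). Nop58 and Polr1a had intervals above 0 in both libraries, where 4.96% of features had, and Npm1 below, where 2.27% had.

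In T barcodes the members summed to 4579 CPM in shCtrl and 4117 CPM in shSrsf10, a log2 ratio of -0.15 (-0.18 to -0.12). In keratin-free T barcodes they summed to 4002 and 3173 CPM, a log2 ratio of -0.33 (-0.40 to -0.27). All 33 reached 20 UMIs. None was at least 1.5-fold higher (11.4% of 11659 features) and 4 were lower (19.8%): Odc1, Utp20, Noc2l and Polr1a. The median log2 ratio was -0.13, beside -0.08 over all features. Counting intervals lay above 0 for 4 members and below 0 for 12, against 12% and 19.1% of features. In keratin-free barcodes 31 reached the minimum, 2 were higher (15.5% of features) and 8 lower (25.5%), with a median of -0.35 beside -0.11. The T gates differed in makeup: barcodes with Cd8 RNA and no Cd4 or Foxp3 RNA were 124 of 386 in shCtrl and 1162 of 2107 in shSrsf10. The neutrophil markers, 6 in all, summed to 224.5 CPM in shCtrl and 93.3 in shSrsf10 T barcodes, and their part in the T results was not tested.

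Odc1, which lies at chr12:17544794-17551505 on the + strand and has 12 exons, had the largest difference of any member in T barcodes. It was at 326.5 CPM in shCtrl, from 688 UMIs in 216 of 386 barcodes, and at 125.0 CPM in shSrsf10, from 1787 UMIs in 688 of 2107 barcodes, a log2 ratio of -1.39 (-1.51 to -1.26). In keratin-free barcodes it was at 603.6 and 185.1 CPM, a log2 ratio of -1.71 (-1.89 to -1.51), a larger difference in the sum. The keratin-free barcodes differed in makeup as well. Those with Cd8 RNA and no Cd4 or Foxp3 RNA were 29.6% in shCtrl and 56.6% in shSrsf10. The part of makeup in the Odc1 ratios was not tested. Over the whole T gate the 10 richest barcodes held 20.8% of Odc1 UMIs in shCtrl and 7.39% in shSrsf10.

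The lower Odc1 level was found in every T subset examined. Among barcodes with Cd8 RNA it was at 188.9 and 66.0 CPM (log2 ratio -1.52), and among those with Cd4 RNA alone at 514.4 and 272.1 CPM (-0.92). Barcodes with Foxp3, the regulatory T cell gene, numbered only 19 and 20 and were at 551.3 and 375.3 CPM (-0.55, -1.08 to -0.04). Those with none of the 3 were at 254.1 and 119.9 CPM (-1.08). Without keratin barcodes these 4 subsets held 64, 66, 11 and 75 shCtrl and 703, 208, 17 and 313 shSrsf10 barcodes. Their log2 ratios were then -1.25, -1.41, -1.40 and -1.15, with each interval below 0. Each was a smaller difference than the -1.71 of all keratin-free T barcodes. Leaving out keratin barcodes made the difference smaller in the Cd8 subset and larger in the others. Over all T barcodes, tumour RNA included, those with at least 2 cell cycle UMIs had 282.7 and 116.7 CPM (-1.28). Those with none had 490.3 and 143.8 CPM (-1.77). The order by subset was the same in both libraries, with the Cd8 barcodes lowest.

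**Figure D3:**
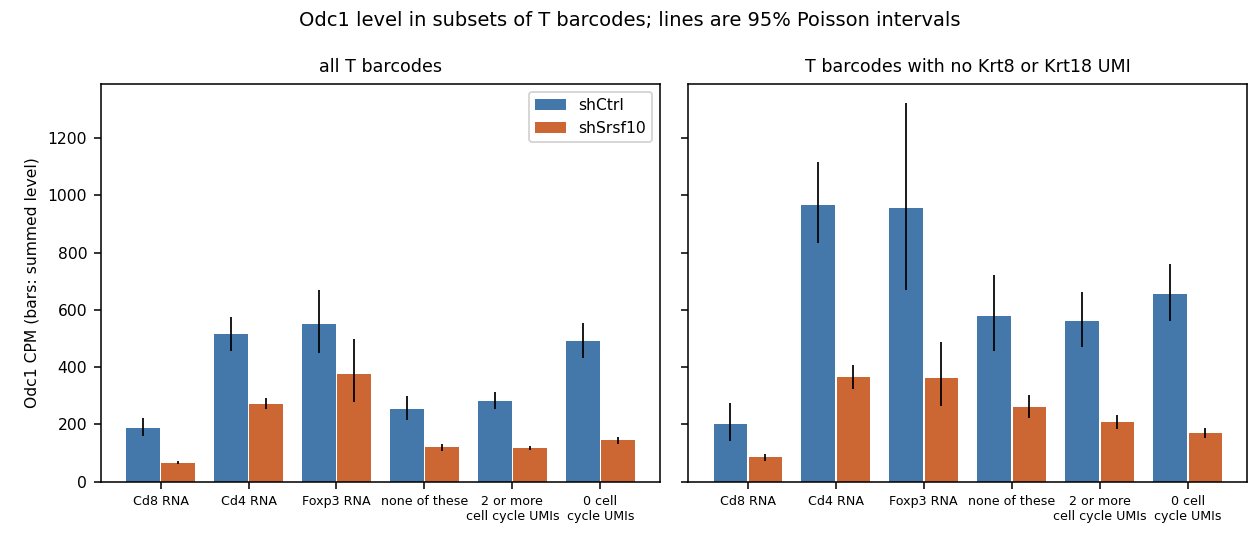
Odc1 CPM in summed T barcodes of shCtrl (blue) and shSrsf10 (orange), by subset RNA and by cell cycle UMIs, for all T barcodes (left) and those with no Krt8 or Krt18 UMI (right); lines are 95% Poisson intervals. The shSrsf10 bar is lower in every pair, from 66.0 against 188.9 CPM in Cd8 barcodes to 375.3 against 551.3 in Foxp3 barcodes on the left.

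Among other polyamine genes in T barcodes, Srm was at 92.1 and 45.3 CPM, a log2 ratio of -1.02 (-1.26 to -0.79), and in keratin-free barcodes at 46.4 and 20.5 CPM (-1.18, -1.83 to -0.48). Of 17 measured, 3 were at least 1.5-fold lower and 1 higher, where 19.8% and 11.4% of features were. The list's summed log2 ratio was 0.22 (0.18 to 0.27), the opposite direction to Odc1, and its median -0.24. In tumour barcodes, whose RNA the T sums also hold, the list's summed ratio was 0.23. Oaz1, the antizyme gene, was at 411.0 and 501.0 CPM, a log2 ratio of 0.29 (0.18 to 0.39). The list's sum and Oaz1 were not measured in keratin-free barcodes, so they do not show levels in the T cells themselves.

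By role, ratios in T barcodes were above 0 for 6 of 10 factors of the 60S subunit, 1 of 5 of the 40S subunit, 3 of 8 snoRNP genes, 1 of 5 chaperones and none of 3 around RNA polymerase I. Ncl was at 615.1 and 465.3 CPM, a log2 ratio of -0.40 (-0.49 to -0.32), and in keratin-free barcodes at -0.20 (-0.38 to -0.02). Npm1 was at 1069 and 1128 CPM (0.08), and its keratin-free interval held 0. Nop10 had a log2 ratio of -0.36 (-0.45 to -0.27), and -0.72 (-0.91 to -0.52) without keratin barcodes. Polr1a was at 19.9 and 12.9 CPM (-0.63, -1.12 to -0.11), Utp20 at 12.3 and 6.93 CPM (-0.83, -1.47 to -0.15) and Noc2l at 48.4 and 29.7 CPM (-0.70, -1.02 to -0.38). The keratin-free intervals of these 3 held 0, and without barcodes of more than 1 gate Polr1a was at -0.43. Wdr12 (0.55), Wdr74 (0.33) and Ebna1bp2 (0.19) of the 60S set had intervals above 0 in all T barcodes and not in the keratin-free ones.

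Myc in T barcodes was at 44.1 CPM from 93 UMIs in shCtrl and 50.2 CPM from 717 UMIs in shSrsf10, a log2 ratio of 0.18 (-0.13 to 0.51). In keratin-free barcodes it was lower in both, at 16.1 CPM from 9 UMIs and 32.6 CPM from 127, a log2 ratio of 1.02 (0.05 to 2.18). In all T barcodes 10 of the shCtrl barcodes held 49.5% of its UMIs, so this level rests on few cells. Of the 19 immediate early genes 3 were at least 1.5-fold higher (11.4% of all features) and 4 lower (19.8%) in T barcodes. Fos was at 55.5 and 119.3 CPM and Jund at 231.6 and 105.0 CPM. Of 36 cell cycle genes in T barcodes none was at least 1.5-fold higher and 3 were lower, Mki67 among them at 83.5 and 43.6 CPM. The immediate early and cell cycle lists were not measured in keratin-free barcodes.

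Thinned to 2000 UMIs, T barcodes had a median of 0.40% member UMIs in shCtrl and 0.25% in shSrsf10, over 213 and 1461 barcodes. The 173 and 646 shallower barcodes were left out. The 10th and 90th percentiles were 0.15% and 0.75% in shCtrl and 0.10% and 0.60% in shSrsf10, so the ranges overlapped widely. Counting noise at 2000 UMIs is part of these ranges. Barcodes with keratin RNA were kept here. Keratin-free T barcodes had median UMIs of 1757.5 in shCtrl and 2303 in shSrsf10, so in shCtrl the cut lay above their median. The part of tumour RNA in these shares was not tested.

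**Figure D4:**
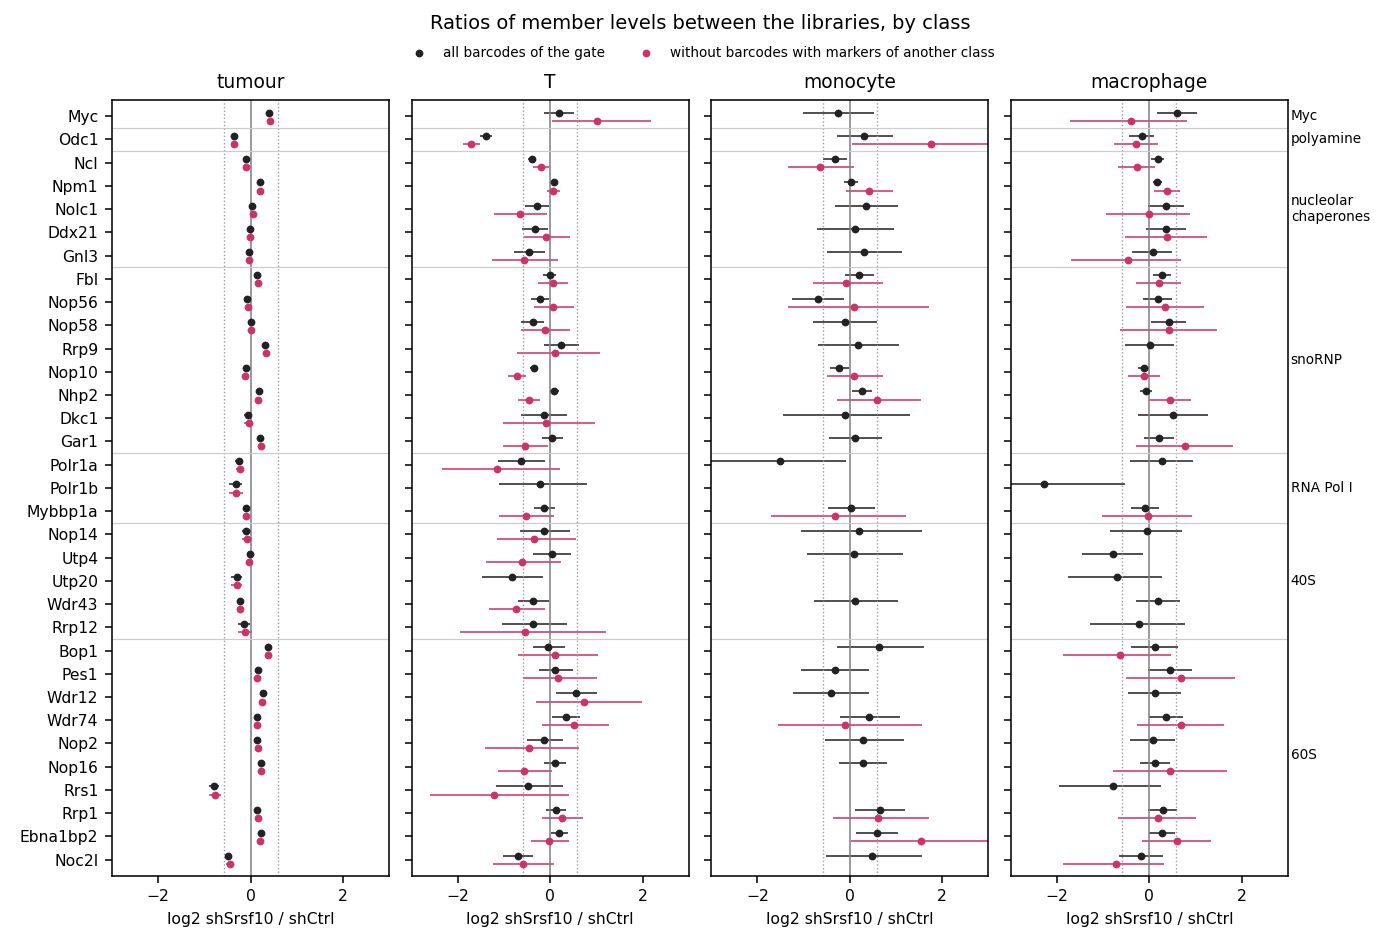
Log2 ratio of each member, shSrsf10 over shCtrl, in 4 classes, for all barcodes of a gate (black) and without barcodes with markers of another class (red); lines are 95% counting intervals, 4 of them running past the axis, dotted lines mark 1.5-fold, and members under 20 UMIs are not drawn. Tumour ratios lie within 1.5-fold apart from Rrs1, Odc1 stands far below 0 in T barcodes, and monocyte and macrophage intervals are wide.

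In macrophage barcodes the members summed to 3650 CPM in shCtrl and 3900 in shSrsf10, a log2 ratio of 0.10 (0.05 to 0.14), and in keratin-free ones to 2673 and 2873 CPM, 0.10 (-0.02 to 0.23). All 33 reached 20 UMIs, 1 was at least 1.5-fold higher (11.3% of 9287 features) and 4 were lower (16.2%). Counting intervals lay above 0 for 5 and below 0 for 2, against 12.7% and 11.7% of features. The higher one, Myc, was at 35.9 and 54.6 CPM from 92 UMIs in each library, a log2 ratio of 0.60 (0.17 to 1.04). In keratin-free barcodes it was at 37.8 and 28.7 CPM from 19 and 9 UMIs, a log2 ratio of -0.40 (-1.73 to 0.82), the opposite sign with an interval that held 0. Polr1b went from 22 UMIs to 3, a log2 ratio of -2.27 (-4.65 to -0.53), Utp4 from 73 to 28 UMIs (-0.78), Utp20 from 32 to 13 (-0.69) and Rrs1 from 29 to 11 (-0.79), and the intervals of the last 2 held 0. Without keratin barcodes these 4 were under 20 UMIs, at 3 and 1 for Polr1b, 6 and 3 for Utp4, 2 and 1 for Utp20 and 7 and 1 for Rrs1, and every interval held 0. As a mean over barcodes Polr1b was at -0.34 and Utp4 at -0.56, and with gate minimums doubled Utp20 and Rrs1 were at -0.40. Keratin-free barcodes left 21 members measured, of which 4 were higher (13.8%) and 2 lower (22.2%). There Npm1 was the member whose interval excluded 0, at 494 and 644 CPM (0.38, 0.11 to 0.66). Of 12 macrophage markers outside the gate, 10 were at least 1.5-fold lower in shSrsf10, with summed levels of 9798 and 5319 CPM, of which Apoe made up 8417 and 4642 CPM. The 11 T cell markers summed to 125.7 and 605.5 CPM, and the part of both lists in the member ratios was not tested.

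Odc1 in macrophage barcodes was at 123.8 and 110.4 CPM, a log2 ratio of -0.16 (-0.43 to 0.10), and at 224.9 and 184.9 CPM (-0.28, -0.76 to 0.19) without keratin barcodes. Srm was lower there too, at 101.1 and 43.9 CPM, a log2 ratio of -1.20 (-1.60 to -0.82), though its keratin-free interval held 0 (-0.76, -1.76 to 0.16). Whether the Odc1 ratio differed between T and macrophage barcodes was not tested.

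Monocyte barcodes were the fewest, and 29 members reached 20 UMIs. Polr1b, Utp20, Rrp12 and Rrs1 did not. The sum was 3522 and 3609 CPM, a log2 ratio of 0.04 (-0.04 to 0.11), and 2139 and 2356 CPM (0.14, -0.08 to 0.36) without keratin barcodes. Few barcodes carried these levels: the 10 richest held 63.4% of Npm1 UMIs in shCtrl and 60.9% in shSrsf10. Of the 29, 2 were at least 1.5-fold higher (19.6% of 5979 features) and 2 lower (16.6%). Counting intervals lay above 0 for 3 and below 0 for 4, against 14.1% and 10.4% of features. Without keratin barcodes 11 were measured, 3 higher (25.1%) and 1 lower (15.7%), with Odc1 going from 3 to 27 UMIs (1.75, 0.05 to 4.12). Rrp1, a factor of early 60S processing, was at 66.6 and 104.2 CPM (0.65, 0.12 to 1.20), and Bop1 at 23.2 and 36.1 CPM (0.64, -0.27 to 1.61). Without keratin barcodes the interval of Rrp1 held 0 (0.61, -0.36 to 1.71) and Bop1 went from 3 to 4 UMIs, with a CPM of 27.1 and 13.5, the opposite direction, and an interval of -3.57 to 1.77. Rrp1 was past 1.5-fold in 7 of 11 alternatives, among them changes of the UMI minimum that cannot alter a ratio, and at 0.36 when thinned. Nop56 was at 88.2 and 55.1 CPM (-0.68, -1.24 to -0.12), with 0.08 (-1.33 to 1.71) in keratin-free barcodes, and Polr1a went from 13 to 7 UMIs (-1.52), and from 0 to 1 without keratin barcodes. Of 33 measured cell cycle genes 25 were at least 1.5-fold higher and 1 lower in shSrsf10 monocyte barcodes, with summed levels of 1500 and 3045 CPM. Of 4 measured neutrophil markers, all 4 were higher, with a summed level over all 6 of 26.3 and 818 CPM. Their part in the monocyte ratios was not tested.

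Between the classes the members were highest in tumour and T barcodes. With barcodes carrying markers of another class left out, the sum was 4429 and 4691 CPM in tumour, 4002 and 3173 in T, 2673 and 2873 in macrophage and 2139 and 2356 in monocyte barcodes of shCtrl and shSrsf10. That order was the same in both libraries. With all gate barcodes kept, T barcodes were above tumour barcodes in shCtrl (4579 and 4436 CPM) and below them in shSrsf10 (4117 and 4695 CPM). Without markers of another class, monocyte barcodes had 13 of 33 members at least 1.5-fold below tumour barcodes in both libraries, where 40.3% of features were. They had none above, where 18.4% were. Polr1a is counted among the 13 with 0 and 1 UMIs. Macrophage barcodes had 10 below (30.6%) and 3 above (23.8%), and T barcodes 10 below (29.7%) and 3 above (29.2%). Nhp2, Nop16, Mybbp1a and Myc were below in all of these.

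Odc1 and Ddx21 were the members above the tumour level in both T and macrophage barcodes. Odc1 in keratin-free T barcodes was 12.6-fold above tumour barcodes in shCtrl and 4.95-fold in shSrsf10, and in macrophage barcodes 4.68-fold and 4.95-fold. Ddx21, an RNA helicase of early ribosomal RNA processing, was 2.32-fold and 2.19-fold above in T and 1.64-fold and 2.14-fold in macrophage barcodes. Nop14 was also above in T (2.03-fold and 1.68-fold) and Noc2l in macrophage barcodes (1.85-fold and 1.54-fold). With all gate barcodes kept, 2 members were above tumour in T (24%), 1 in macrophage (20.4%) and none in monocyte barcodes (16.6%), and none, none and 1 below (15.8%, 9.04% and 19.1%). Odc1 in T barcodes was then 6.74-fold and 3.32-fold above tumour. Myc ran the other way: its tumour level was 3.61-fold and 2.37-fold above that of keratin-free T barcodes and 1.53-fold and 2.69-fold above that of macrophages, where the shCtrl interval included equal levels.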

How the data were processed

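Single-cell RNA was measured in 1 shCtrl and 1 shSrsf10 library. The values deposited are raw UMI counts, whole numbers for each feature in each barcode, made with Cell Ranger 6.1.0 and genome build mm10 per the submitters' processing notes. The labels conflict on the kit (10x 5' in the series design, 3' version 3 in the sample protocol) and on cell handling (a flow cytometry sort, or a slow spin that leaves hepatocytes behind), and how many mice were pooled is not given in the sources used here. Barcodes in the files are 17 characters long. No doublet caller was run; 116 shCtrl and 148 shSrsf10 barcodes passed more than 1 gate and were left out in 1 alternative.

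UMIs were summed per class and library and divided by the class total (CPM). Ratios have exact conditional binomial intervals and levels exact Poisson intervals at 95%, from SciPy 1.17.1, tested on simulated data. A call needed a 1.5-fold difference and at least 20 UMIs over both libraries, and the same was counted over all features. A fold or a ratio against 0 was not given. Where a symbol had several gene IDs the one with most UMIs was used, which left out 40 features. The members, gene lists and comparisons were chosen with earlier results of these data known. Named genes were every member and, of each related list in tumour and T barcodes, up to 4 genes highest and 4 lowest among those at least 1.5-fold apart with at least 100 UMIs; Max, Mycn, Mycl and Oaz1, outside this rule, were picked for their roles after the values were seen. Gene positions came from GENCODE vM21 (GRCm38), promoter windows from RefSeq (GRCm38.p6). Copies of Npm1 and other members elsewhere in the genome could take or share reads, and how such reads were counted is not given in the sources used here.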

Additional observations from a re-analysis of the deposited data

Results flagged for a closer look

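Ncl, the nucleolin gene, had counting intervals on opposite sides of 0 in different classes. Its log2 ratio, shSrsf10 over shCtrl, was -0.10 in tumour, -0.40 in T and -0.32 in monocyte barcodes, and 0.18 in macrophage barcodes. Without keratin barcodes the macrophage ratio was -0.28, with an interval of -0.68 to 0.11.

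Nop58, a core protein gene of box C/D snoRNPs, was at -0.38 in T and 0.42 in macrophage barcodes. Without keratin barcodes these were -0.12 and 0.43, and both intervals held 0. The difference between classes was not tested in either gene.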

How the results depend on the processing

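The 11 alternatives were run in each class. The number of members measured changed between them, so each count is given out of those measured. The share of all features past 1.5-fold is given above for the main sums and for barcodes without markers of another class. The other counts have no such share beside them, so they are not read as shifts particular to the members. In tumour barcodes the summed log2 ratio was 0.059 scaled to UMIs outside mitochondrial and ribosomal protein genes, 0.14 when centred on all features, 0.10 as a mean over barcodes and 0.035 without barcodes with Mki67 or Top2a, where the median was -0.082. Without those barcodes, and thinned to 2000 UMIs, 2 of 33 members were lower.

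In T barcodes the summed log2 ratio was -0.28 without barcodes passing more than 1 gate, -0.33 without keratin barcodes, -0.20 outside ribosomal protein genes, -0.069 centred, -0.35 as a mean over barcodes, -0.20 with gate minimums doubled, -0.26 without Mki67 or Top2a barcodes and -0.48 thinned, where the median was -0.53. Members higher and lower were 2 and 7 of 33 without barcodes of more than 1 gate and 2 and 8 of 31 without keratin barcodes. They were 2 and 10 of 33 as a mean over barcodes and 2 and 12 of 31 thinned, and 1 of 33 was higher when centred. Odc1 was past 1.5-fold under all 11 alternatives, from -1.71 to -1.30.

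In monocyte barcodes the summed log2 ratio was 0.14 without keratin barcodes, -0.043 outside ribosomal protein genes, -0.25 as a mean over barcodes, -0.10 with gate minimums doubled, -0.60 without Mki67 or Top2a barcodes and -0.31 thinned. Members higher were 6 of 26 without barcodes of more than 1 gate, 0 of 29 outside ribosomal protein genes and 0 of 11 thinned. They were 1 of 29 when centred, 1 of 12 at a minimum of 100 UMIs and 1 of 21 without Mki67 or Top2a barcodes. Members lower were 0 of 26 without barcodes of more than 1 gate, 1 of 11 without keratin barcodes and 1 of 12 at 100 UMIs. They were 8 of 29 as a mean over barcodes and 4 of 33 with 1 UMI in each library as the minimum. Thinned they were 4 of 11, and without Mki67 or Top2a barcodes 7 of 21. Bop1 turned to -0.69 as a mean over barcodes and Nop56 to 0.084 without keratin barcodes.

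In macrophage barcodes the summed log2 ratio was -0.079 without barcodes of more than 1 gate, where the median was -0.32 and 0 of 28 members were higher. It was 0.048 outside ribosomal protein genes, -0.075 without Mki67 or Top2a barcodes and -0.013 thinned. Members higher were 4 of 21 without keratin barcodes, 0 of 33 outside ribosomal protein genes and with gate minimums doubled, and 3 of 25 thinned. Members lower were 2 of 21 without keratin barcodes, 2 of 33 with gate minimums doubled and 1 of 26 at 100 UMIs. Myc turned to -0.40 without keratin barcodes. The cause of these shifts was not tested.

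No paired analysis was possible because each group is 1 library. Differences between mice cannot be told apart from the hairpin. Few UMIs limit single members in the monocyte and macrophage classes, where 11 and 21 of 33 reached the minimum without keratin barcodes.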
